A study of Mus musculus with 24 samples.

Results

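Hepatic transcripts of the 4 fibroblast growth factor (FGF) receptors (Fgfr1, Fgfr2, Fgfr3 and Fgfr4), of their coreceptor beta-klotho (Klb) and of the ligands Fgf1 and Fgf21 were examined by RNAseq. These 7 genes were taken by name from the 25746 genes listed, and 7 of the 7 passed the filter on low counts that left 12330 genes for testing. They were chosen by name, as a receptor family with its coreceptor and liver ligands, at a time when counts of these same 24 libraries had been analysed, so their p-values describe the mice measured here and are not independent support. The mice were C57/BL6N and aged 12 weeks, with 6 male wildtype (mWT), 6 male knockout (mKO), 6 female wildtype (fWT) and 6 female knockout (fKO) animals. In KO mice, CRISPR/Cas9 had removed the whole cluster of Mup genes on chromosome 4, which encode the major urinary proteins, small lipocalins that the liver of adult males secretes in large amounts. All KO mice were homozygous and descended from a single founder, so a difference between KO and WT mice is a difference between homozygous and WT mice of 1 edited line. Every animal had received standard chow, was briefly fasted and was anesthetized for a scan before the liver was taken. Each library was made from whole liver of 1 mouse, in which fewer cells of a type and less RNA per cell cannot be told apart.

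FGF receptors are receptor tyrosine kinases that, once a ligand has brought them together, signal through the adaptor FRS2 to the RAS and ERK kinases, and Sprouty proteins and DUSP phosphatases damp this signal. The endocrine ligands bind only weakly to the receptors alone and need a klotho protein beside them. In hepatocytes, FGFR4 with beta-klotho receives FGF15 from the gut after a meal and lowers bile acid synthesis, while FGF21 is released by the liver itself in fasting or amino acid shortage and acts on other organs through FGFR1 with beta-klotho.

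Fgfr1 was lower in mKO than in mWT mice, and in WT mice it was higher in males than in females. Klb and Fgfr3 were lower in mWT than in fWT mice. A call here means an adjusted p under 0.05 in the quasi-likelihood test of edgeR, adjusted by Benjamini-Hochberg over all genes tested. In males, 1 of the 7 genes was called between KO and WT mice, beside 0.211% of all genes tested (0.178% called lower), and 2 had an unadjusted p under 0.05 (10.6% of all genes). The shares of called genes between KO and WT mice include the deleted Mup genes. Outside the Mup family, 9 genes were called in males, 5 of them lower in mKO mice. In females, 0 of the 7 genes was called (0.0892% of all genes), with 0 at an unadjusted p under 0.05 (4.87% of all genes) and 0 by DESeq2. With the Mup genes removed before testing, 0 of all genes were called in females. Between the sexes, 3 of the 7 genes were called in WT mice, where 17.3% of all genes were called, 8.51% as higher and 8.81% as lower in males, and 5 of the 7 had an unadjusted p under 0.05 (30.6% of all genes). DESeq2 also called Fgfr4 in this comparison (log2 difference −0.38, adjusted p = 0.0424). In KO mice 0 of the 7 were called between the sexes (14.4% of all genes), with 2 at an unadjusted p under 0.05 (28.4% of all genes) and 0 by DESeq2. The genotype by sex interaction gave 0 calls among the 7 genes (0.00811% of all genes), with 2 at an unadjusted p under 0.05 (5.96% of all genes) and 0 by DESeq2, which gave no adjusted p for Fgfr1 (unadjusted p = 0.000926) and Fgf21. For the KO effect averaged over both sexes, 0 of the 7 genes was called (0.170% of all genes), with 1 at an unadjusted p under 0.05 (9.57% of all genes) and 0 by DESeq2, which gave no adjusted p for Fgf21. In males DESeq2 gave no adjusted p for Fgf21 and Fgfr1, because its filter on mean counts left them out (for Fgfr1 unadjusted p = 9.7e-07, and adjusted p = 0.00057 without that filter, a run added after seeing the data). The comparisons share groups: the KO effect in males and the sex difference in WT mice both rest on the 6 mWT libraries.

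**Figure D1:**
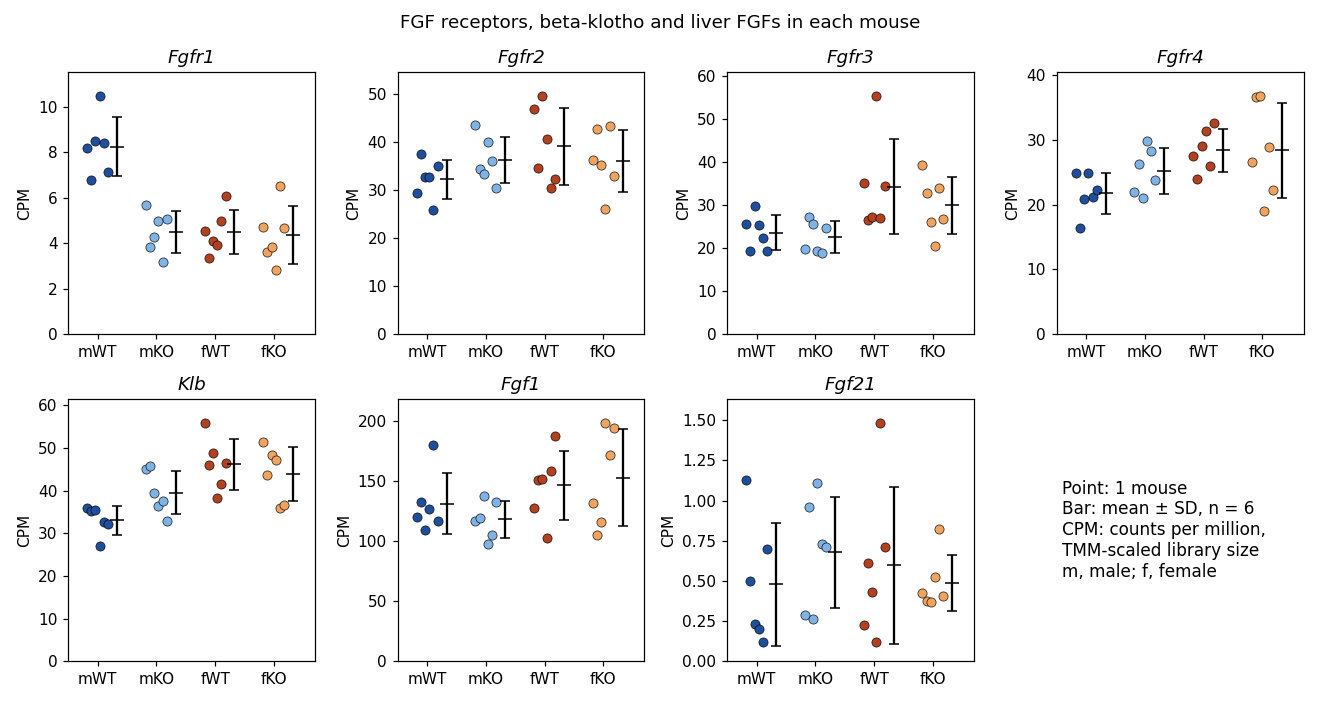
Expression in CPM (counts scaled by library size, y axis from 0) of the 7 genes in each of the 24 mice by group (x axis), where a point is 1 mouse and the bar gives the mean ± SD of 6 mice. For Fgfr1 the 6 mWT mice sit between 6.79 and 10.5 CPM, above all mice of the other 3 groups, whereas for Fgf21 the points of each group spread widely near 0.

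The total count per library ranged from 15361901 to 26261394. The sum of the Mup genes was between 17028 and 37393 CPM in mWT and between 3395 and 5259 CPM in fWT mice, and it did not exceed 0.457 CPM in any mKO or 0.415 CPM in any fKO mouse, as the genotype labels say. The 7 hepatocyte markers found summed to between 95624 and 149931 CPM in the 24 mice. The 5 adipocyte markers, which mark another tissue rich in beta-klotho, summed to at most 0.53 CPM. Of the 44 tested markers of all cell types, 0 was called between KO and WT mice in either sex by edgeR or DESeq2. Of these markers, 4 had an unadjusted p under 0.05 in males (10.6% of all genes) and 1 in females (4.87% of all genes). Between mWT and fWT mice 10 of the 44 were called, beside 17.3% of all genes. The summed Kupffer cell markers lay between 80.5 and 162 CPM in mWT and between 146 and 267 CPM in fWT mice, and the 5 blood markers between 149 and 214 CPM in mWT and between 40.5 and 67.8 CPM in fWT mice. Of the blood markers 1 was called between mWT and fWT mice, Alas2, an enzyme of heme synthesis (log2 difference 3.44, adjusted p = 1.45e-13 by edgeR), whereas the 4 globins had log2 differences between 0.31 (Hbb-bt) and 0.50 (Hba-a2) and were not called. Their part in the sex differences of Fgfr1, Fgfr3 and Klb was not tested.

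The DNA before 3 of these genes is shown because the results turn on Klb and Fgfr3, which differed between the sexes, and because Fgf21 carries a response element that bears on its known inducers. The sequences are from RefSeq (GRCm38.p6), run 5′ to 3′ on the strand of the gene and stop before the first base that the GENCODE M21 annotation counts as an exon of the gene. Capitals mark the letters TTGCATCA, the element bound by ATF4, the transcription factor of the amino acid and stress response.
Klb, chr5:65348161-65348313, + strand: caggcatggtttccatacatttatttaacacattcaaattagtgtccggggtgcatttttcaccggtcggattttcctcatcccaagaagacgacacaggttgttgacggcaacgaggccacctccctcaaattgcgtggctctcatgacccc
Fgfr3, chr5:33721474-33721673, + strand: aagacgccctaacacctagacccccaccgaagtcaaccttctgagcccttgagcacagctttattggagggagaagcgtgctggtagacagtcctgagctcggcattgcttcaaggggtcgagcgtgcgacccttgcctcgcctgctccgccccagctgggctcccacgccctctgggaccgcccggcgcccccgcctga
Fgf21, chr7:45615491-45615740, - strand: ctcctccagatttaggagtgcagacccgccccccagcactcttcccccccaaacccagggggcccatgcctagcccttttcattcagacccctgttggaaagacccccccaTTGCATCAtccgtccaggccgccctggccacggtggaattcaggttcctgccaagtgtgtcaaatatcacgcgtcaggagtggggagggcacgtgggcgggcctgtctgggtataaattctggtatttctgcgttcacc

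The RefSeq table held 6 promoters of these genes (Fgfr2, Fgfr3 with a pair of starts, Fgfr4, Klb and Fgf21), each from 250 bases before to 50 bases after a start, and 4 motifs were searched in them on both strands. The ATF4 letters occurred in the promoter of Fgf21, 139 bases before the start, and in 0.895% of all 32851 promoters. The letters TTCNNNGAA, which STAT5, the growth hormone responsive factor, binds, were in 0 of the 6 promoters and in 8.3% of all promoters. The direct repeat bound by PPARalpha, with 1 base between its arms, and the inverted repeat bound by the bile acid receptor FXR, searched by their consensus letters, were in 0 of the 6 promoters, and in 0.0396% and 0.00913% of all promoters. These windows show only whether the letters are there.

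The levels of the 7 genes were compared per kb of exon, since a longer transcript gives more reads. Fgf1 had the highest level, with 25.2 ± 5.56 CPM per kb (SD, n = 24), followed by Klb with 8.94 ± 1.57 CPM per kb and Fgfr4 with 7.33 ± 1.46 CPM per kb. Fgfr3 and Fgfr2 were at 3.86 ± 1.14 CPM per kb and 3.47 ± 0.591 CPM per kb. Fgf21 (0.590 ± 0.368 CPM per kb) and Fgfr1 (0.548 ± 0.201 CPM per kb) were lowest. Neighbours in this order overlapped over the mice, except that Fgf1 lay above Klb in all mice and Fgfr2 above Fgf21. The order of the receptors depended on the length used. Per kb of the longest transcript, Fgfr2 was at 8.10 CPM per kb, above Fgfr4 with 7.81 CPM per kb and Fgfr3 with 6.51 CPM per kb, while Fgfr1 stayed the lowest receptor with 1.07 CPM per kb.

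**Figure D2:**
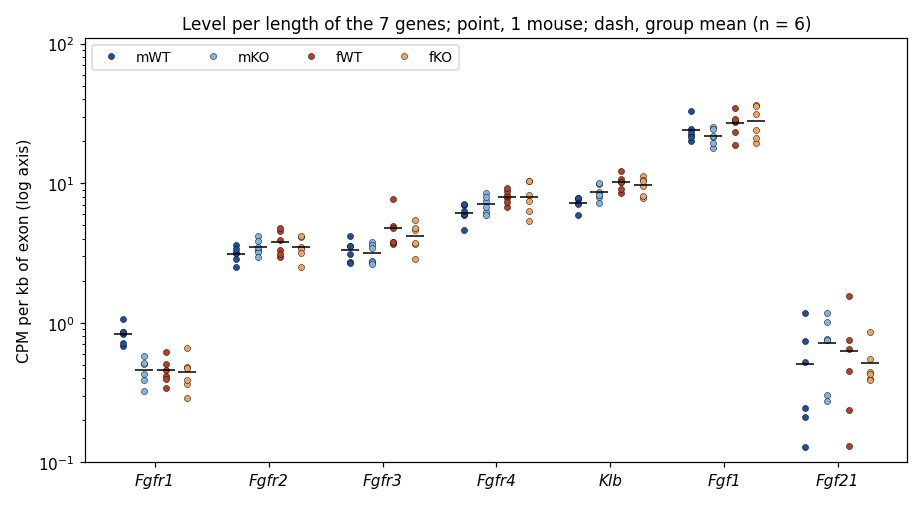
Level per length of the 7 genes (x axis) in CPM per kb of exon (y axis, log scale), where each point is 1 of 24 mice coloured by group and a dash is the mean of the 6 mice of a group. Fgf1 lies highest at 25.2 CPM per kb over all mice, the receptors Fgfr2, Fgfr3 and Fgfr4 and the coreceptor Klb form a middle range, and Fgfr1 and Fgf21 lie lowest.

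Fgfr1 (ENSMUSG00000031565, chr8:25513654-25575718, + strand) encodes the receptor through which FGF21 acts on fat and brain. Its expression was between 6.79 and 10.5 CPM (median 8.3) in mWT and between 3.18 and 5.70 CPM (median 4.62) in mKO mice. In females it was between 3.37 and 6.09 CPM (median 4.32) in fWT and between 2.84 and 6.54 CPM (median 4.25) in fKO mice. All 6 mWT mice were therefore above all 6 mKO and all 6 fWT mice, while the ranges of mKO, fWT and fKO mice overlapped. Without overlap in this direction were 0.503% of all genes, Mup genes included, between mKO and mWT and 3.66% between mWT and fWT mice.

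Fgfr1 averaged 8.25 ± 1.30 CPM over the mWT and 4.50 ± 0.916 CPM over the mKO group (SD, n = 6 each). The log2 fold change was −0.87 (standard error 0.172, 95% interval −1.22 to −0.52, adjusted p = 0.0175 by edgeR), so that mKO mice had 0.547 of the mWT level. It was the third of the 9 called genes outside the Mup family in order of p, and 5 of these 9 were lower in mKO mice. Among females it averaged 4.37 ± 1.28 CPM over the fKO and 4.50 ± 0.955 CPM over the fWT group (SD, n = 6 each). Here the log2 fold change was −0.04 with a 95% interval from −0.40 to 0.32 (adjusted p = 0.99 by edgeR). The change in males differed from that in females by −0.83 on the log2 scale (95% interval −1.33 to −0.33, unadjusted p = 0.00218 by edgeR), which did not pass the adjustment over all genes (adjusted p = 0.816). Averaged over the sexes, the log2 fold change was −0.45 (adjusted p = 0.201 by edgeR). In WT mice the male level was 1.83 times the female level (log2 fold change 0.87, standard error 0.171, adjusted p = 0.000629 by edgeR), and in KO mice the log2 difference was 0.04 (95% interval −0.32 to 0.40, adjusted p = 0.901).

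The call between mKO and mWT mice was lost when the Mup genes were removed before testing, which left the fold change at −0.87 and the p at 2.91e-05 but raised the adjusted p to 0.111, and when mWT mouse 4 (adjusted p = 0.0891), mKO mouse 2 (0.0646), mKO mouse 3 (0.0534) or mKO mouse 5 (0.0727) was left out. The sex difference in WT mice was called under every alternative tried, with an adjusted p of at most 0.00272. The counts behind Fgfr1 were between 48 and 208 per library. Its spread between mWT mice, a coefficient of variation of 15.8%, was wider than the counting error of 8.62% at the median count.

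Markers of non-parenchymal liver cells are given beside Fgfr1, and their part in its difference was not tested. The summed level of the 10 stellate cell and fibroblast markers was between 236 and 380 CPM in mWT and between 208 and 330 CPM in mKO mice, that of the 8 endothelial markers between 147 and 186 CPM in mWT and between 146 and 178 CPM in mKO mice, and that of the 7 cholangiocyte markers between 30.6 and 40.7 CPM in mWT and between 31.0 and 47.3 CPM in mKO mice. The ranges of mKO and mWT mice overlapped for each of the 3 lists, and no defining marker was at 0. In fWT mice, where Fgfr1 was lower than in mWT mice, stellate cell and fibroblast markers were between 325 and 413 CPM and endothelial markers between 165 and 228 CPM.

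Fgfr2 (ENSMUSG00000030849, - strand of chromosome 7), a receptor of the paracrine FGFs, was between 25.9 and 37.4 CPM (median 32.7) in mWT and between 30.4 and 43.4 CPM (median 35.2) in mKO mice. In females it was between 30.4 and 49.6 CPM (median 37.6) in fWT and between 26.0 and 43.3 CPM (median 35.7) in fKO mice. All 4 ranges overlapped. Its log2 fold change was 0.17 (95% interval −0.09 to 0.44, adjusted p = 0.697 by edgeR) between KO and WT males, and −0.11 (95% interval −0.38 to 0.15, adjusted p = 0.947) in females. Between mWT and fWT mice it was −0.28 (unadjusted p = 0.0391, adjusted p = 0.139). The annotated span of Fgfr2 covers many other genes, and 314 of its exon bases are shared with Ctbp2, of which no library had more than 38 counts.

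Fgfr3 (ENSMUSG00000054252, chr5:33721674-33737068, + strand), a receptor best known from bone growth, was between 19.3 and 29.8 CPM (median 23.8) in mWT and between 18.9 and 27.3 CPM (median 22.2) in mKO mice. It was between 26.5 and 55.4 CPM (median 30.8) in fWT and between 20.6 and 39.2 CPM (median 29.8) in fKO mice. Of the 6 mWT mice, 5 were below all fWT mice, and fWT mouse 4 stood above the rest of its group with 55.4 CPM. The log2 difference between mWT and fWT mice was −0.54 (standard error 0.175, 95% interval −0.90 to −0.18, adjusted p = 0.0352 by edgeR). Without fWT mouse 4 it was −0.35 and no longer called (adjusted p = 0.116), and the call was also lost without mWT mouse 2, 5 or 6 or fWT mouse 1 (highest adjusted p of these 0.0795), without the filter on low counts (0.0605), with only these 12 libraries in the fit (0.0624) and with the mouse number as a block (0.0679). In KO mice the difference had the same sign, −0.41 (95% interval −0.77 to −0.05, adjusted p = 0.127). The KO effect was −0.07 (95% interval −0.43 to 0.30) in males and −0.20 (95% interval −0.55 to 0.16) in females, and the interaction missed the threshold (0.13, 95% interval −0.38 to 0.64, adjusted p = 0.953).

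Fgfr4 (ENSMUSG00000005320, chr13:55152640-55168759, + strand), the receptor that carries the FGF15 signal in hepatocytes, was between 16.4 and 25 CPM (median 21.8) in mWT and between 21.0 and 29.9 CPM (median 25.1) in mKO mice. In fWT mice it was between 24 and 32.7 CPM (median 28.3), and in fKO mice it ranged most widely, from 19 to 36.9 CPM (median 27.8). The KO effect was 0.21 on the log2 scale (95% interval −0.08 to 0.50, adjusted p = 0.643 by edgeR) in males and 0.00 (95% interval −0.28 to 0.28, adjusted p = 1) in females. Between mWT and fWT mice the difference was −0.38 (95% interval −0.67 to −0.10), with an adjusted p of 0.0556 by edgeR that missed the threshold, and it was called under 10 of 32 alternatives, whose adjusted p ranged from 0.0189 with these 12 libraries alone to 0.124 with a mouse left out.

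The receptors were compared for shared sequence that could mix their reads. The longest run of bases shared exactly between the longest coding transcripts of any pair was 26 bases, between Fgfr1 and Fgfr3, which is shorter than a sequenced read. An antisense gene, G630022F23Rik, overlaps 998 exon bases of Fgfr3 and had at most 3 counts in a library. Fgfr1 overlaps an antisense gene by 164 exon bases, and the strand setting of the counting was not given in the sources used here. A stretch of 497 bases of the Fgfr3 transcript is 92% identical to the opposite strand of Nvl.

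Per kb of exon, Fgfr1 made up 6.22% ± 0.648 (SD, n = 6) of the transcripts of the 4 receptors in mWT and 3.22% ± 0.724 (SD, n = 6) in mKO mice, and 2.71% ± 0.635 (SD, n = 6) in fWT and 2.78% ± 0.715 (SD, n = 6) in fKO mice. Fgfr4 made up between 45.8% and 49.8% in the means of the 4 groups. These shares depend on the length used. Per kb of the longest transcript, Fgfr2 averaged 7.27 and Fgfr4 6.55 CPM per kb in mWT mice, so that Fgfr4 was no longer the highest receptor. The sum of the 4 receptors was 13.4 ± 1.22 CPM per kb (SD, n = 6) in mWT and 14.2 ± 0.899 CPM per kb (SD, n = 6) in mKO mice.

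Klb (ENSMUSG00000029195, chr5:65348314-65384007, + strand), the coreceptor without which FGF15 and FGF21 do not signal, was between 27.0 and 35.9 CPM (median 33.9) in mWT and between 32.9 and 45.9 CPM (median 38.5) in mKO mice. It was between 38.4 and 55.9 CPM (median 46.3) in fWT and between 35.9 and 51.5 CPM (median 45.4) in fKO mice. All 6 mWT mice were below all 6 fWT mice, as for 4.05% of all genes, and 5 of the 6 mKO mice were above 35.9 CPM, the highest mWT mouse. Klb averaged 33 ± 3.32 CPM over the mWT against 46.2 ± 6.05 CPM over the fWT group (SD, n = 6 each), a log2 difference of −0.48 (standard error 0.103, 95% interval −0.69 to −0.27, adjusted p = 0.00151 by edgeR), which was called under every alternative tried (highest adjusted p = 0.00587).

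In KO mice the sex difference of Klb was −0.15 (95% interval −0.36 to 0.06, adjusted p = 0.359 by edgeR). The KO effect in males was 0.26 (standard error 0.103, 95% interval 0.05 to 0.47) with an unadjusted p of 0.0171 and an adjusted p of 0.34, and in females it was −0.07 (95% interval −0.28 to 0.13, adjusted p = 0.959). The interaction was 0.34 (95% interval 0.04 to 0.63, unadjusted p = 0.0281), which did not pass the adjustment (adjusted p = 0.823 by edgeR). Between mKO and mWT mice Fgfr1 was thus called lower, while the higher estimate of Klb was not called. Whether both transcripts come from the same liver cells was not tested.

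Fgf1 (ENSMUSG00000036585, chromosome 18), a ligand that binds all 4 receptors, was between 109 and 180 CPM (median 124) in mWT and between 97.8 and 138 CPM (median 118) in mKO mice. It was between 103 and 188 CPM (median 151) in fWT and between 106 and 199 CPM (median 152) in fKO mice. The ranges overlapped in every comparison. The KO effect was −0.15 (95% interval −0.48 to 0.18, adjusted p = 0.82 by edgeR) in males and 0.06 (95% interval −0.26 to 0.39, adjusted p = 0.977) in females. The sex difference was −0.16 in WT mice (95% interval −0.49 to 0.17, adjusted p = 0.537) and −0.37 in KO mice (95% interval −0.70 to −0.04, adjusted p = 0.123).

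Fgf21 (ENSMUSG00000030827, chr7:45613886-45615490, - strand), the fasting hormone whose promoter with the ATF4 element is printed above, was near the limit of detection. It had between 2 and 27 counts per library, and 2 of the 24 libraries held 3 counts or fewer, a floor that corresponds to between 0.114 and 0.195 CPM. The range was 0.122 to 1.12 CPM (median 0.366) in mWT, 0.264 to 1.11 CPM (median 0.721) in mKO, 0.124 to 1.48 CPM (median 0.521) in fWT and 0.372 to 0.822 CPM (median 0.417) in fKO mice. All 4 groups overlapped. The KO effect was 0.51 on the log2 scale in males (95% interval −0.54 to 1.57, adjusted p = 0.804 by edgeR) and −0.22 in females (95% interval −1.24 to 0.79, adjusted p = 0.974). The coefficient of variation in mWT mice was 79.6%, against a counting error of 40.8% at the median count of 6.

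**Figure D3:**
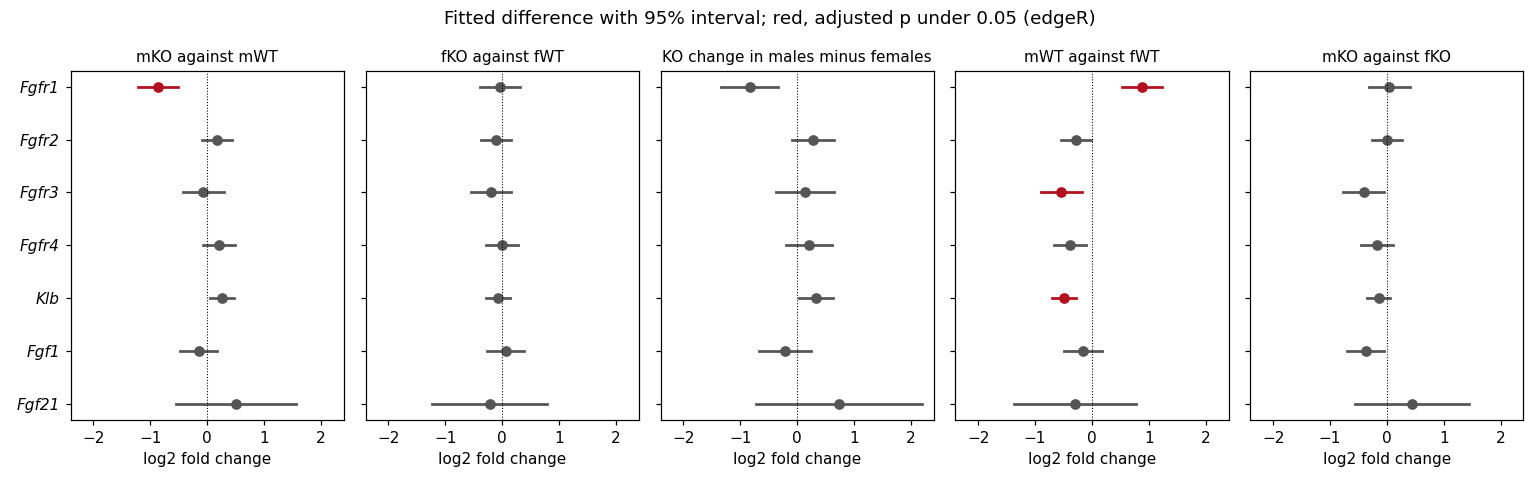
Fitted log2 fold change (x axis) of the 7 genes (y axis) in 5 comparisons, where the point is the estimate and the line its 95% interval over 24 mice, with red marking an adjusted p under 0.05. Fgfr1 lies at −0.87 in males and −0.04 in females for KO against WT and at 0.87 for mWT against fWT, and the intervals of Fgf21 are the widest.

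Other ligands were nearly absent from the liver. Of the 20 other FGF genes listed, 11 had no count in any library, Fgf15 among them, 4 had between 1 and 10 counts over all 24 libraries, and 2 (Fgf2 and Fgf11) passed the filter. A count of 0 allows at most 3 counts per library, or 0.195 CPM in the shallowest. Fgf2, a paracrine growth factor, was at 0.684 ± 0.214 CPM (SD, n = 6) in mWT and 0.575 ± 0.328 CPM (SD, n = 6) in mKO mice. Fgf7, a ligand of Fgfr2, had 14 counts in all. Kl, the klotho that serves FGF23 in kidney, had 7 counts over all libraries. Neither of the 2 ligand genes tested was called between KO and WT mice, with 0 at an unadjusted p under 0.05 in males and 0 in females, and 0 by DESeq2. In KO mice Fgf11, an FGF that stays inside the cell, was lower in males than in females (log2 difference −1.08, adjusted p = 0.0314 by edgeR).

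The genes around these receptors were described by lists, which were also chosen with earlier results known. Of the 89 tested genes of the 8 lists, edgeR called 0 between mKO and mWT mice (0.211% of all genes). In this comparison 18 had an unadjusted p under 0.05 (10.6% of all genes), 9 of them PPARalpha and its targets. Between fKO and fWT mice 0 were called (0.0892% of all genes), with 3 at an unadjusted p under 0.05 (4.87% of all genes). DESeq2 called 5 in males, 4 of them PPARalpha and its targets and 1 a bile acid gene, and 0 in females. Over all 12330 genes tested, it called 139 in males and 18 in females. Between mWT and fWT mice 16 of the 89 were called by edgeR, beside 17.3% of all genes, and 17 between mKO and fKO mice, beside 14.4% of all genes.

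The list of coreceptors and FGF-binding surface proteins includes proteins whose heparan sulfate chains hold FGFs at the cell surface. Of its 9 tested genes, 0 were called higher and 3 lower in mWT than in fWT mice (Sdc1 −0.60, adjusted p = 0.0011, Sdc2 −0.33, adjusted p = 0.00219, Sdc3 −0.52, adjusted p = 0.0373, by edgeR). The median log2 difference of the list was −0.23, beside −0.00 for all genes tested. In KO mice Sdc1 (−0.46, adjusted p = 0.0113) and Sdc2 (−0.27, adjusted p = 0.0129) were lower and Gpc1 (1.17, adjusted p = 0.0323) was higher in males. Fgfrl1, a receptor without a kinase, averaged 24.1 ± 3.53 CPM over the mWT and 22.9 ± 2.19 CPM over the mKO group (SD, n = 6 each), with a log2 fold change of −0.07 (adjusted p = 0.889 by edgeR).

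Signal transduction genes differed little. Of the 18 tested, 0 were called in either KO comparison by edgeR or DESeq2 (2 at an unadjusted p under 0.05 in males and 0 in females), with a median log2 fold change of −0.02 in males and −0.01 in females. Frs2, the docking adaptor of the receptors, had a log2 fold change of −0.03 in males (95% interval −0.18 to 0.11). The ERK kinase kinase Map2k1 was higher in males than in females both in WT (0.30, adjusted p = 0.000263 by edgeR) and in KO mice (0.19, adjusted p = 0.0192), and Gab1 was lower in mKO than in fKO mice (−0.38, adjusted p = 0.0337).

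Feedback inhibitors and ERK target genes lie downstream of the RAS and ERK signal described above. Whether FGF receptors set their levels in these livers was not tested. Of the 15 tested, 0 were called in either KO comparison by edgeR or DESeq2, with 1 at an unadjusted p under 0.05 in each sex, and the median log2 fold change was −0.02 in males and −0.01 in females. Dusp6, the phosphatase that ERK induces, had a log2 fold change of 0.03 in males (95% interval −0.51 to 0.56), Spry4 of −0.06 (95% interval −0.76 to 0.63), Spry2 of 0.07 (95% interval −0.55 to 0.69) and Egr1 of −0.13 (95% interval −1.08 to 0.83). The 1 gene at an unadjusted p under 0.05 in males was Myc, a growth-related transcription factor named here after its values were seen, with a log2 fold change of −1.37 (95% interval −2.67 to −0.08, unadjusted p = 0.0384, adjusted p = 0.435 by edgeR). In WT mice, Il17rd (−0.88, adjusted p = 0.00926 by edgeR), a membrane inhibitor of FGF signals, and Dusp5 (−1.10, adjusted p = 0.0403) were lower in males, and Dusp5 also in KO mice (−1.14, adjusted p = 0.0364).

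The bile acid genes include enzymes of the synthesis that FGFR4 with beta-klotho lowers. They also include regulators, such as Nr1h4, and transporters, which are not read here as output of the receptor. Cyp7a1, the rate-limiting enzyme of bile acid synthesis, averaged 425 ± 263 CPM over the mWT and 121 ± 66.4 CPM over the mKO group (SD, n = 6 each), with a log2 fold change of −1.81 (95% interval −2.79 to −0.83). It was not called by edgeR (unadjusted p = 0.000962, adjusted p = 0.135). In females its log2 fold change was −0.17 (95% interval −1.12 to 0.78, adjusted p = 0.981), and it was lower in mKO than in fKO mice (−1.56, adjusted p = 0.0279). Cyp8b1, the enzyme that makes cholic acid, was higher in males both in WT (0.92, adjusted p = 0.0165 by edgeR) and in KO mice (0.98, adjusted p = 0.0118), as was Cyp7b1 (3.43 and 2.93). Nr0b2, which represses Cyp7a1, had a log2 fold change of 0.45 in males (95% interval −0.32 to 1.21), and Nr1h4, the gene of the bile acid receptor, of −0.21 (95% interval −0.53 to 0.12). Of the 10 genes, 0 were called in males by edgeR, with 2 at an unadjusted p under 0.05 and 1 by DESeq2.

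PPARalpha and its targets include the main inducers and companions of Fgf21 in fasting. Of the 15 tested, 0 were called in males by edgeR (9 at an unadjusted p under 0.05, beside 10.6% of all genes, and 4 by DESeq2, which called 139 of all genes) and 0 in females (1 at an unadjusted p under 0.05, 0 by DESeq2), with a median log2 fold change of 0.26 in males and −0.04 in females, beside −0.00 for all genes in both. Cyp4a14, a PPARalpha target, averaged 46.8 ± 68.3 CPM over the mWT and 337 ± 292 CPM over the mKO group (SD, n = 6 each), with a log2 fold change of 2.85 (95% interval 1.22 to 4.47, adjusted p = 0.152 by edgeR). Ppara itself had a log2 fold change of −0.31 (95% interval −0.61 to −0.01, adjusted p = 0.454), and Creb3l3, a partner of PPARalpha at the Fgf21 gene, of 0.04 (95% interval −0.14 to 0.21). Between mWT and fWT mice, Cyp4a14 (−3.69, adjusted p = 0.00298), Cyp4a10 (−2.28, adjusted p = 0.00074) and Vnn1 (−0.99, adjusted p = 0.0442) were lower in males. In KO mice Plin2 (0.49, adjusted p = 0.0165) and Fabp1 (0.46, adjusted p = 0.0163) were higher in males.

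Of the 12 tested genes of the integrated stress response, the ATF4 branch that also induces Fgf21, 0 were called in males (1 at an unadjusted p under 0.05) or in females (1 at an unadjusted p under 0.05) by edgeR, and 0 by DESeq2. Atf4 had a log2 fold change of 0.20 in males (95% interval −0.09 to 0.50). Trib3 was at 0.60 (95% interval −0.08 to 1.28) and Ddit3 at 0.29 (95% interval −0.15 to 0.72). The symbol Ddit3 belongs to a pair of overlapping genes, and the one with more reads was used. The list median was 0.005 in males, with 7 of the 12 above and 5 below 0, and 0.13 in females. In females the 1 gene at an unadjusted p under 0.05 was Ddit3 (0.61, unadjusted p = 0.00695, adjusted p = 0.929 by edgeR). Asns was higher in males in WT (5.75, adjusted p = 3.91e-08 by edgeR) and in KO mice (5.37, adjusted p = 2.54e-07), as was Mthfd2 (1.26, adjusted p = 0.00167, and 1.12, adjusted p = 0.00434). Psat1 was called in WT mice (1.02, adjusted p = 0.0178) and not in KO mice (0.71, adjusted p = 0.113). Its interaction was not called (−0.32, 95% interval −1.20 to 0.56, adjusted p = 0.94 by edgeR). Of the 8 carbohydrate response genes, 0 were called in males (2 at an unadjusted p under 0.05) or in females (0 at an unadjusted p under 0.05) by edgeR, and 0 by DESeq2. Gpd1 was higher in males in WT (0.56, adjusted p = 0.00577) and in KO mice (0.90, adjusted p = 3.98e-05), and Khk in KO mice (0.36, adjusted p = 0.0235).

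**Figure D4:**
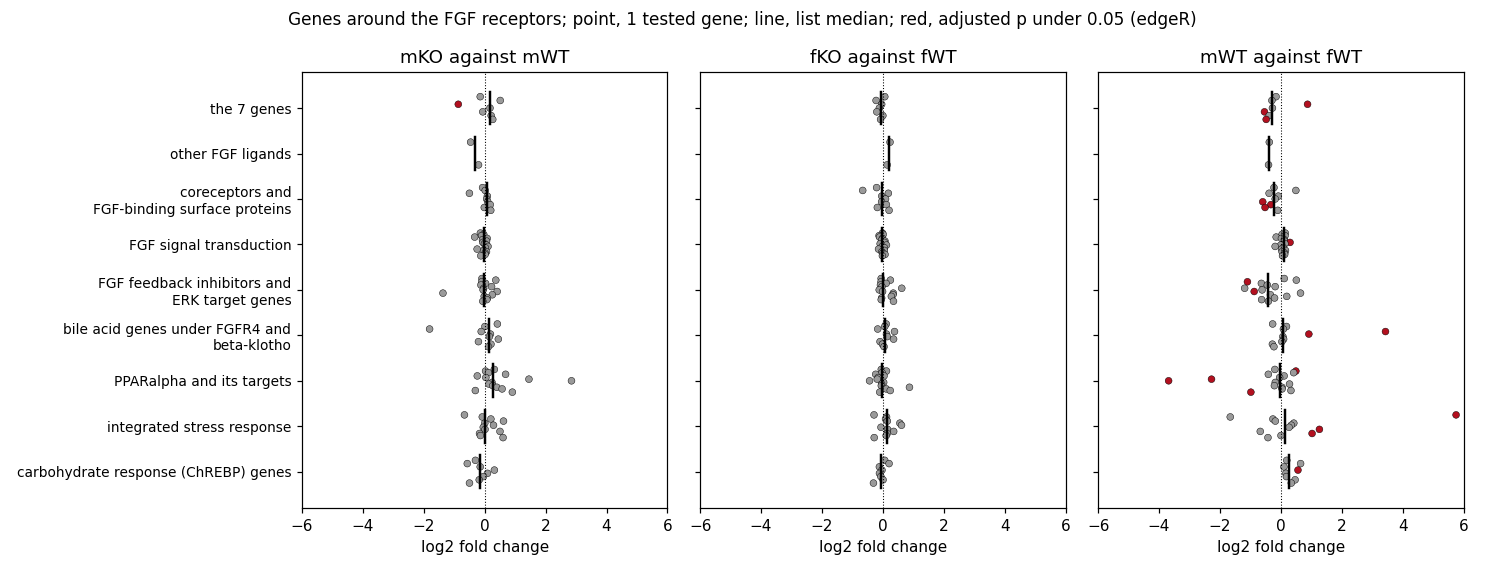
Log2 fold change (x axis) of the 7 genes and of the 8 lists of genes around the FGF receptors (y axis) in 3 comparisons, where each point is 1 tested gene, the vertical line the median of the list, and red an adjusted p under 0.05. For KO against WT, Fgfr1 at −0.87 in males is the red point among all lists, whereas mWT against fWT mice shows red points in 8 of the 9 rows.

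Whether mice with more receptor transcript also had more or less of its partners was examined in 8 pairs over the 24 mice, after subtracting the mean of each group from log2 CPM. Klb and Fgfr4 had a Pearson r of −0.10 (permutation test, p = 0.676) and a Spearman rho of −0.11 (permutation test, p = 0.655). The 8 pairs had Pearson r between −0.39 (Fgfr4 and Cyp7a1) and 0.40 (Fgf21 and Cyp4a14), and the lowest adjusted permutation p over the 8 pairs was 0.255 for r and 0.283 for rho. Fgfr4 and Cyp7a1 had r = −0.39 (permutation test, p = 0.117; rho −0.31, permutation test, p = 0.182), and r = −0.24 without the 2 mice farthest from the median of Fgfr4. Within the groups of 6 mice it was −0.31 in mWT, 0.64 in mKO, −0.28 in fWT and −0.88 in fKO mice, so that its sign was not the same in all groups. Fgf21 and Trib3 had r = 0.40 (permutation test, p = 0.0974, and rho 0.33, permutation test, p = 0.157), and r = 0.29 without 2 mice. Within mWT mice r was 0.96 (two-sided exact permutation test, p = 0.00139, adjusted p = 0.0111 over the 8 pairs in this group). It was 0.60 within mKO, −0.33 within fWT and −0.25 within fKO mice. The adjustment does not cover the choice of mWT among the 4 groups, and Fgf21 had only between 2 and 18 counts in mWT mice. Fgf21 and Cyp4a14 had r = 0.40 (permutation test, p = 0.0911; rho 0.44, permutation test, p = 0.0612), and r = 0.38 without 2 mice.

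By the same measure over the 24 mice, the genes most like Fgfr1 among all genes tested were Mcm6 (r = 0.79), Ces3b (0.77) and Glis2 (0.77). Those most like Fgfr2 were Dab2 (0.81), Wls (0.77) and Hace1 (0.77), those most like Fgfr3 were Zc2hc1c (0.82), Phf23 (0.81) and Mum1 (0.78), and those most like Fgfr4 were Maged1 (0.90), Lsr (0.86) and Cep170b (0.85). Klb was most like Eif4a2 (0.78), Impact (0.75) and Rabggtb (0.71), Fgf1 most like Ncoa4 (0.92), Man2a1 (0.90) and Fmo2 (0.86), and Fgf21 most like Hdac6 (0.75), Coro1b (0.75) and Map1lc3b (0.74). Between the 7 genes themselves r ranged from −0.60 (Fgfr4 and Fgf1) to 0.34 (Fgfr3 and Fgfr4), and Fgf1 was also inversely related to Fgfr2 (r = −0.56). These values share libraries and depth and are given as a description.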

How the data were processed

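Liver RNA of 24 mice was sequenced by the authors from stranded mRNA libraries in a single-end run, trimmed with fastp (version 0.20 in the submitters' processing notes), aligned to GRCm38.p6 with STAR and counted with featureCounts. The values deposited are raw counts per Ensembl gene. The annotation release, the strand setting and the treatment of reads with several positions are not given in the sources used here. The 7 genes and all lists were chosen with earlier results of these data known. Of 25746 genes, 25712 were matched to GENCODE M21.

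Genes reaching 0.66 CPM in 6 or more libraries were tested with edgeR 4.0.16 (R 4.3.3): TMM scaling, robust quasi-likelihood fit, a mean for each of the 4 groups, Benjamini-Hochberg adjustment over 12330 genes. CPM were scaled with TMM, and 0.5 was added before log2 in correlations, which used 100000 permutations within groups. Each library is 1 mouse, so p-values and the intervals of fitted fold changes rest on the spread between these mice. The floors (3 counts), on reads without molecular identifiers, cover counting error only. The text names the 7 genes, 20 partners named with the design, up to 4 called genes per list and comparison, and the 3 genes most like each of the 7. A called gene of 1 list is not reported here. Of the lists it names, marker lists are reported in counts and sums. Alternatives were DESeq2 1.42.0, its size factors, no filter, filterByExpr, removal of Mup genes, the mouse number as a block, only the 2 groups compared, and each mouse left out. DESeq2 without independent filtering was added after seeing the data. Same-numbered mice are different animals, and their deviations correlated by between −0.36 and 0.22. The procedure was tested on simulated data. Methylation data were not analysed here.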

Additional observations from a re-analysis of the deposited data

Results flagged for a closer look

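Of the 28 groups of 6 mice (7 genes in 4 groups), 3 had a mouse apart from the others by Dixon's criterion, where chance gives about 1.4. Fgfr3 was at 55.4 CPM in 1 fWT mouse (number 4), and the sex difference of Fgfr3 in WT mice was not called without it. Fgf1 was at 180 CPM in 1 mWT mouse, and Fgf21 was at 0.822 CPM in 1 fKO mouse.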

How the results depend on the processing

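Leaving out the 4 mKO or mWT mice named above, or the Mup genes, ended the call of Fgfr1 in males. With DESeq2, 139 genes were called in males, 18 in females, 11 for the interaction and 50 for the average over the sexes, and without its independent filtering (chosen after seeing the data) 107, 18, 10 and 48. Of the 7 genes, DESeq2 called 0 in males, where Fgfr1 had no adjusted p. Removing the Mup genes left 2 genes called in males, 0 in females and 1 for the average, and 0 of the 7 genes in males. With only mKO and mWT libraries in the fit, 48 genes were called. Per kb of the longest transcript the levels were 1.07 (Fgfr1), 8.10 (Fgfr2), 6.51 (Fgfr3), 11.5 (Klb) and 34.5 CPM (Fgf1).

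Same-numbered mice did not deviate together. At most 2 of 6 numbers in a comparison correlated by over 0.1, and each mouse correlated best with its own number in at most 1 of 6. With the mouse number as a block 24 genes were called in males, Fgfr3 lost its sex difference in WT mice as given above, and Fgfr4 in females turned from 0.00 to −6.08e-05.

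With each mouse left out in turn, genes called ranged from 19 (without mWT mouse 4) to 59 (without mWT mouse 1) in males, 8 to 12 in females and 18 to 28 for the average. Calls among the 7 genes ranged from 0 to 1 in males, 0 to 1 for the average (Fgfr1 without fKO mouse 5, adjusted p = 0.0403 by edgeR), 2 to 4 between the sexes in WT mice and 0 to 1 in KO mice (Fgf1 without fKO mouse 2, adjusted p = 0.0463 by edgeR). Log2 values that turned sign ranged from −0.13 to 0.0127 (Fgfr3) in males. In females they ranged from −0.20 to 0.0689 (Fgfr1), −0.0877 to 0.095 (Fgfr4), −0.0206 to 0.15 (Fgf1) and −0.46 to 0.25 (Fgf21). The interaction of Fgfr3 ranged from −0.058 to 0.22, and the averages of Fgfr2 from −0.00256 to 0.0705 and of Fgf1 from −0.0847 to 0.0132. Sex differences ranged from −0.74 to 0.18 (Fgf21, WT), −0.0579 to 0.20 (Fgfr1, KO) and −0.0755 to 0.065 (Fgfr2, KO). The causes of these changes were not tested.

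Correlations turned sign within single groups for Klb with Fgfr4 (fKO 0.115) and Cyp7a1 (fKO 0.184), for Fgfr4 with Cyp7a1 (mKO 0.641) and Cyp8b1 (mWT −0.399), for Fgf21 with Cyp4a14 (mKO −0.0184), Trib3 (fWT −0.325, fKO −0.255) and Ddit3 (fWT −0.771), and for Fgfr2 with Fgfr3 (mWT −0.321, mKO −0.709). For Fgf21 with Trib3, r was 0.963 within mWT mice. Of 1325 values for the 7 genes under an alternative, 1266 kept their direction and side of the threshold. Of the 317 that were not from leaving out a mouse, 309 did. Most results of the 7 genes were not called in the main fit, so these counts say little about how firm a call is. Fgfr1 in males lost its call as given above. Few reads limited Fgf21, where 2 libraries held 3 counts or fewer.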
